A study of Mus musculus with 7 samples.

Results

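The genes described here are the heat shock proteins and J-domain proteins of the mouse, the core of the cell's machinery for folding, refolding and sorting proteins. Members were chosen by symbol alone: those starting with Hspa, Hspb, Hspd, Hspe, Hsph or Hsp9, and those starting with Dnaja, Dnajb or Dnajc and a number, with the heparan sulfate proteoglycan Hspg2 left out. This gave 74 of the 32531 gene symbols counted, 29 with Hsp and 45 with Dnaj symbols. Of these, 69 had enough reads to be tested, among 17654 genes tested in all.

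Midbrain RNA came from adult Stard8-TRAP ES2342 mice, which were controls and received no treatment. All 7 libraries carry the same transgene, an EGFP tag on the ribosomal protein Rpl10a (EGFP/Rpl10a) under regulatory sequence of Stard8, so there is no group without the tag. In translating ribosome affinity purification (TRAP), ribosomes that carry the tag are pulled from homogenized tissue with antibodies against EGFP, and the RNA on them is sequenced. The groups compared were this immunopurified RNA (IP, 3 libraries, numbered 1, 2 and 4) and the RNA left after the purification (unbound, 4 libraries, numbered 1 to 4). The comparison asks which chaperone transcripts were more or less abundant on the tagged ribosomes than in the rest of the tissue. The labels do not say that libraries of a group came from separate animals, so p-values measure the spread between these samples, which may be partly technical.

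HSP70 proteins bind and release unfolded stretches of other proteins in a cycle driven by ATP. J-domain proteins, the DNAJA, DNAJB and DNAJC classes, bring clients to HSP70 and speed up its ATP hydrolysis, while HSP110 proteins and Hspbp1 act as nucleotide exchange factors that reset it. HSP90 acts later, on nearly folded clients such as kinases and steroid receptors, and the small heat shock proteins hold unfolding proteins without using ATP. Many of these genes are induced on stress by the transcription factor HSF1, which binds repeats of the unit nGAAn in alternating orientation, and those of the endoplasmic reticulum (ER) by factors that bind the ER stress element.

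Of the stress-inducible members described below, Hspb1 had the largest rise of all members, and Hspa1a fell short of the threshold. The promoters of these 2 genes are shown. Each is the stretch of 200 bases before the annotated start, 5′ to 3′ on the gene's strand, from RefSeq (GRCm38.p6), at chr5:135887719-135887918 on the plus strand for Hspb1 and chr17:34972157-34972356 on the minus strand for Hspa1a. Capitals mark 2 adjoining HSF1 units, GAANNTTC or TTCNNGAA, which begin 117 and 97 bases before the start of Hspb1 and 104 bases before that of Hspa1a.
Hspb1: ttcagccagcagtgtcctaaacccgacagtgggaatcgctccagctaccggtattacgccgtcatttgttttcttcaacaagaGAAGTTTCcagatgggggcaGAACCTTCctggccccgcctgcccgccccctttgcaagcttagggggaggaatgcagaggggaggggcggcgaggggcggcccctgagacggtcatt
Hspa1a: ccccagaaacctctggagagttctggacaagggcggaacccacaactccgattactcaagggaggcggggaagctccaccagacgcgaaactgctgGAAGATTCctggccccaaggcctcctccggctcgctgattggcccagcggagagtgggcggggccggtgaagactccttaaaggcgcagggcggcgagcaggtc

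Libraries held between 52052340 and 76114634 counts in genes, so that 3 counts equal between 0.0376 and 0.059 CPM (counts in units of the library's TMM-adjusted size). Such floors, and the counting intervals given later, cover counting error only, because reads were not tied to single molecules. Stard8, the gene that lends the transgene its regulatory sequence, measured 388.5, 440.2 and 227.4 CPM in IP 1, 2 and 4 and between 3.51 and 4.89 CPM in the unbound libraries. The submitters describe the profiled cells as neurons. All 10 pan-neuronal markers were lower in IP, with summed levels of 3469, 3791 and 7790 CPM in IP 1, 2 and 4 against 13460 to 21090 CPM in unbound. Endothelial markers were higher in IP for 10 of 10 genes (1535 to 1859 against 13.3 to 20.2 CPM), as were 10 of 10 mural cell markers, that is of pericytes and smooth muscle (2731 to 4011 against 19.1 to 33.5 CPM), and 10 of 10 microglia and macrophage markers (1181 to 1228 against 44.6 to 81.2 CPM). Astrocyte markers were higher for 5 of 8 genes (2094 to 2813 against 1010 to 1688 CPM), oligodendrocyte markers were lower for 8 of 8 (847 to 1578 against 5049 to 6828 CPM), and the 3 measured red cell genes were lower (2.09 to 4.71 against 12.9 to 64.2 CPM). No marker gene of these lists was at 0 in every library. The part of these cell types in the chaperone results was not tested, and in bulk samples more cells of a type and more RNA per cell cannot be told apart.

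A few members differed between the groups by large factors, and most by little. All members together made up 0.651% to 0.662% of the counts in genes in IP and 0.600% to 0.908% in unbound, and these ranges overlap. Their summed level on the TMM scale was 6001 to 6662 CPM in IP and 7003 to 9061 CPM in unbound, with every IP library below every unbound one, so the order of the sums depends on the scaling. By edgeR's quasi-likelihood test with Benjamini-Hochberg adjustment over all genes, 18 of 69 members (26.1%) passed the threshold of 0.05, against 39.4% of all genes tested. Of these, 6 were higher in IP, where 20.5% of all genes were, and 12 were lower, where 18.9% of all genes were. With libraries scaled by their size alone the split was 8 higher and 8 lower, and 3870 and 2925 in all genes. Within index sequence ACAGTG, carried by IP 1 and 2 and unbound 1 and 2, 6 members (8.7%) passed, where 21.7% of genes did, and within index sequence GTGAAA, carried by IP 4 and unbound 3 and 4, 20 members (29%), where 39% of genes did. The latter fit has 1 IP library, which is assumed to vary like the unbound ones. Without IP 2, 11 members (15.9%) passed, where 24.7% of genes did.

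The median log2 fold change of IP over unbound was -0.21 over the 69 members and -0.10 over all genes tested. Members lay between quartiles of -0.58 and 0.43, and all genes between -0.94 and 0.78. A log2 fold change within 1 of 0 was found in 54 of 69 members (78.3%) and in 55% of all genes. Groups did not overlap in 29 members, 13 with every IP library above every unbound one and 16 below. Of all genes tested, 47.7% did not overlap, 25.1% above and 22.7% below.

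The calls by class were as follows, and differences between classes were not tested. Of 28 tested members with Hsp symbols 5 rose and 4 fell, and of 41 with Dnaj symbols 1 rose and 8 fell (19.5%, close to the 18.9% of all genes). Of the small heat shock proteins 4 of 6 tested rose (66.7%, against 20.5% of all genes) and none fell, with a median log2 fold change of 2.57. In the HSP70 family 1 of 11 rose and 1 fell, and in DNAJB 1 of 11 rose and 1 fell. In DNAJC 7 of 26 fell (26.9%) and none rose, and 1 member each fell among 3 of HSP110, 3 of HSP90 and 3 other Hsp genes. None of 4 DNAJA genes and neither of the 2 chaperonin genes passed the threshold.

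**Figure D1:**
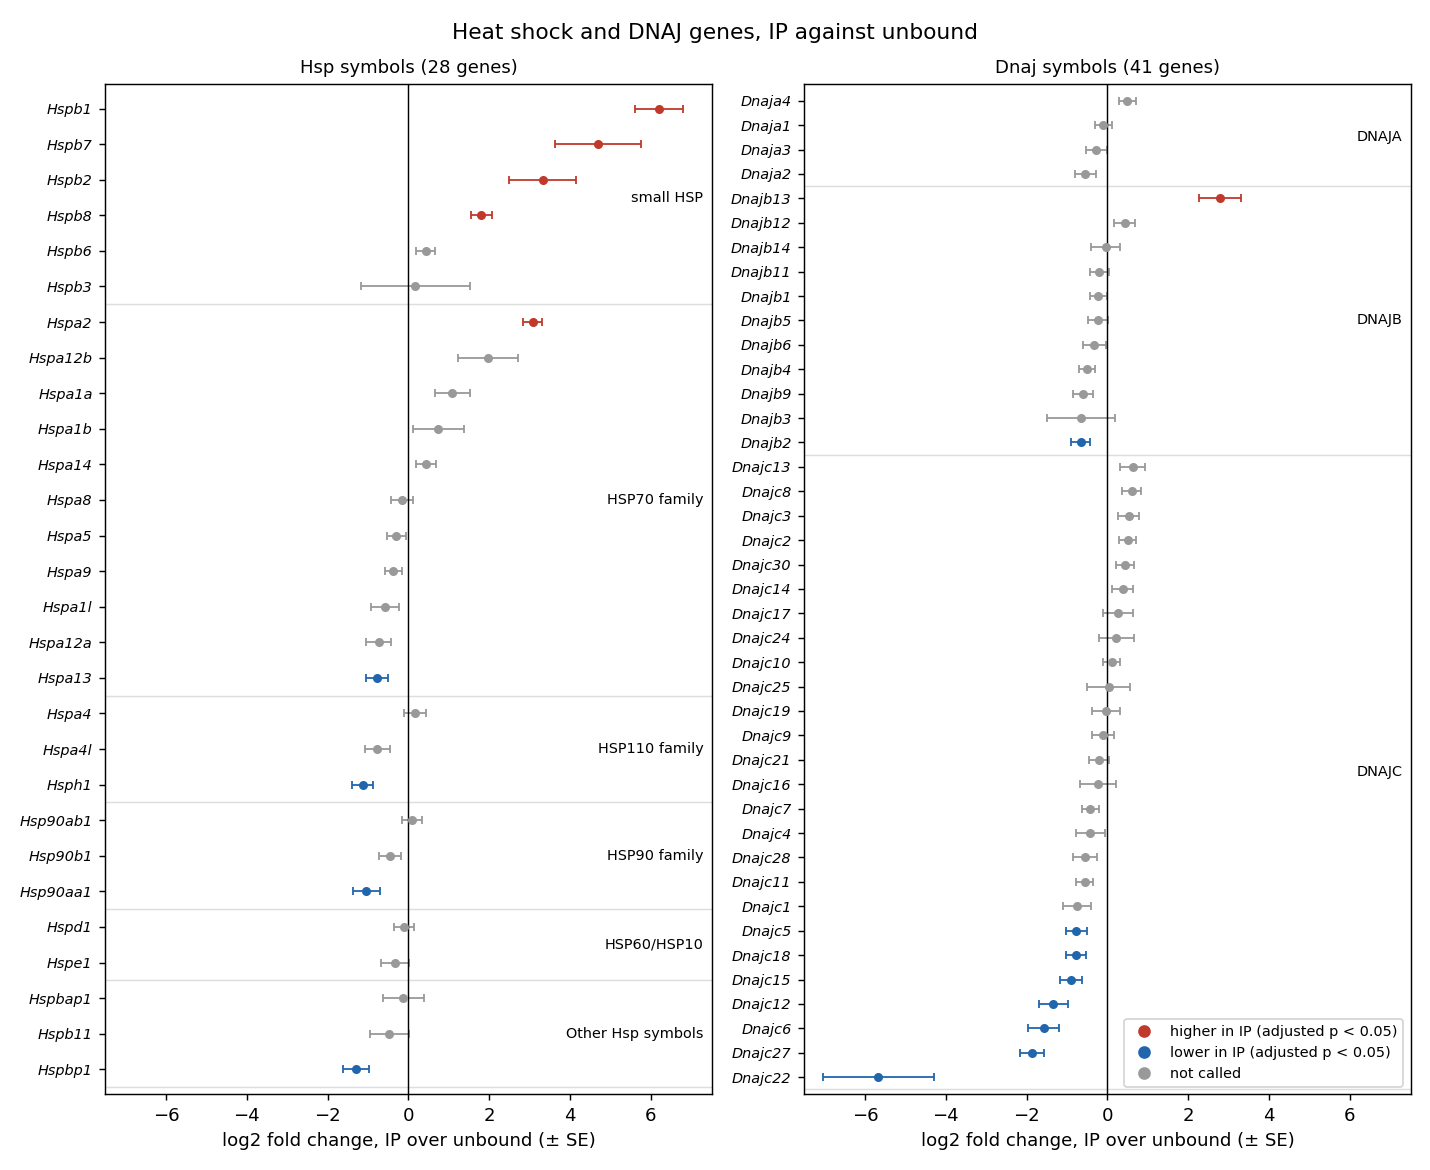
Log2 fold change of IP over unbound (horizontal axis) for the 69 tested members, with bars of 1 standard error to each side and genes grouped by class; red points passed the threshold as higher in IP, blue as lower, and grey did not pass. The small heat shock proteins Hspb1 (6.19), Hspb7 (4.68) and Hspb2 (3.33) and the HSP70 gene Hspa2 (3.08) lie farthest to the right, Dnajc22 (-5.66) farthest to the left, and most others near 0.

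Hspb1 had the largest rise of all members. It encodes the small heat shock protein known as HSP25 or HSP27, which holds unfolding proteins and binds actin filaments, and lies on chr5:135887919-135889563 on the plus strand (GRCm38). It measured 125.8, 151.8 and 106.0 CPM in IP 1, 2 and 4 and 0.288, 2.22, 2.05 and 2.49 CPM in unbound 1 to 4. Every IP library lay above every unbound one. The log2 fold change was 6.19 ± 0.60 (standard error, as for all fold changes that follow; adjusted p = 2.33e-05). Its level per kilobase of exon was at rank 3 of the 74 members in IP (124.0 CPM per kb) and at rank 58 in unbound (1.71 CPM per kb). Sequences of 50 bases shared with the transcripts of other genes, 2 related gene copies named Hsp25-ps1 and Gm9817, made up 50.1% of its transcripts. Reads that align to more than 1 place were not counted in genes, so its level is uncertain in both groups.

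Hspb8 and Hspb7 also stood apart. Hspb8 works with the cochaperone Bag3 in sending misfolded proteins to autophagy. It measured 134.3, 96.2 and 70.6 CPM in IP and 25.2, 32.4, 32.9 and 24.2 CPM in unbound, with no overlap, and rose by 1.81 ± 0.26 on the log2 scale (adjusted p = 0.000374). Hspb7, known from heart and vessels, had 9.44, 10.2 and 7.94 CPM in IP. In unbound it had 0 CPM in library 1, 0.155 in 2, 1.16 in 3 and 0.141 in 4, so unbound 3 was the highest of its group, though below every IP library. Its log2 fold change was 4.68 ± 1.06 (adjusted p = 0.00577), and 6.57 without unbound 3 (adjusted p = 0.000567, against 0.000567 to 0.0214 over the leave-one-out fits).

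Hspb2, which binds a muscle protein kinase, was expressed at a low level. It had 2.31, 1.97 and 1.20 CPM in IP and 0.213, 0.361, 0.038 and 0.106 CPM in unbound, without overlap, and a log2 fold change of 3.33 ± 0.83 (adjusted p = 0.00951). It is the close neighbour of Cryab on chr9, and 30.2% of its exon bases overlap genes counted in the files, so reads from the shared stretch cannot be told apart without strand. Cryab, the small heat shock protein alpha-B crystallin, has no Hsp symbol and so is no member. It moved the other way, from 417.5 ± 169.5 CPM in unbound (SD, n = 4) to 215.8 ± 41.7 CPM in IP (SD, n = 3), a log2 fold change of -0.95 ± 0.34 (adjusted p = 0.0483). That call was lost in 6 of the 7 fits that left out 1 library, all but the one without unbound 1, with adjusted p between 0.0549 and 0.166 in those 6.

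Of the remaining small heat shock proteins, Hspb6 did not overlap between groups (26.5 to 30.7 CPM in IP, 17.6 to 25.5 in unbound), at 0.43 ± 0.23 in log2 fold change, short of the threshold (adjusted p = 0.164). Hspb3 had at most 0.533 CPM in any library, with a log2 fold change of 0.17 and an interval from -2.82 to 3.16. Hspb9 had 8 counts over the IP libraries and 2 over the unbound ones and was not tested.

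**Figure D2:**
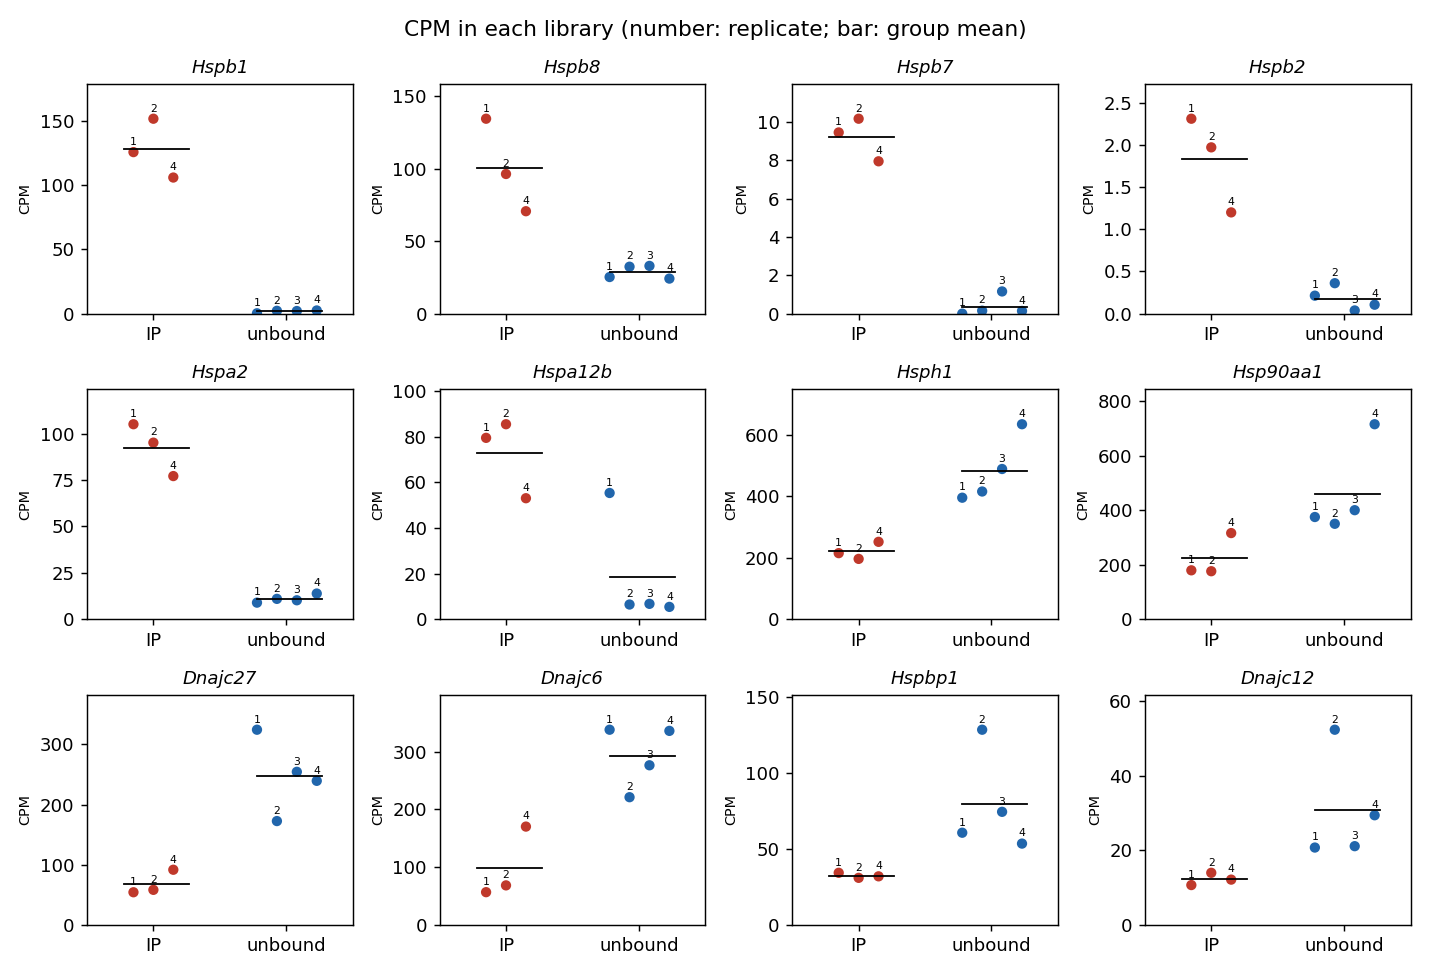
CPM (vertical axis, from 0) of 12 members in each of the 7 libraries, with IP libraries in red and unbound libraries in blue and a bar for each group's mean. Hspb1, Hspa2 and Hspb8 are above every unbound library in all 3 IP libraries, and Dnajc27, Dnajc6 and Hsph1 are below every unbound library.

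Hspa2 was the one called HSP70 gene that rose. It is an HSP70 best known from the testis, where male germ cells need it, and lies on chr12:76404176-76406938. It measured 105.0, 95.1 and 77.1 CPM in IP and 8.90, 10.9, 10.2 and 13.8 CPM in unbound. The groups were well apart, at a log2 fold change of 3.08 ± 0.24 (adjusted p = 5.45e-06), the smallest adjusted p among the members. In CPM per kb it was at rank 11 of the members in IP and at rank 49 in unbound.

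Hspa12b, a distant HSP70 relative known from endothelial cells, had 1 unbound library apart from the rest. It had 79.5, 85.5 and 53.1 CPM in IP and 55.4, 6.43, 6.72 and 5.38 CPM in unbound 1 to 4. Unbound 1 lay within the IP range and the other 3 far below it. The difference, 1.97 ± 0.74 on the log2 scale, fell short of the threshold (adjusted p = 0.0554). Leaving out unbound 1 gave 3.55 (adjusted p = 1.76e-05), and without any other library between 1.67 and 2.16, short of the threshold. With all 7 libraries it passed with limma voom (2.63, adjusted p = 0.00504), with the index covariate (2.14, 0.0197) and with scaling by library size alone (2.02, 0.0487). Hspa12b also passed with the replicate number as a block (2.58, 0.0086), where unbound 3, with no IP library of its number, carries no weight. It did not pass with DESeq2 (adjusted p = 0.0708), RLE scaling (0.0544) or without a low-count filter (0.121). Within index ACAGTG it was 1.42 (adjusted p = 0.292), and within index GTGAAA 3.15 (adjusted p = 9.13e-10). The endothelial marker sum of unbound 1 was 13.3 CPM, the lowest of the unbound libraries, which reached 20.2 CPM. Its part in the Hspa12b values was not tested.

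The abundant HSP70 proteins of each compartment showed no called difference. Hspa8, the constitutive cytosolic HSP70, had 620 to 822 CPM in IP and 618 to 1040 CPM in unbound, and its log2 fold change of -0.16 had an interval from -0.76 to 0.43. It shares 39.4% of its 50-base sequences with other transcripts, so its count is uncertain. Hspa5 (BiP), the HSP70 of the ER lumen, had a log2 fold change of -0.30 (interval -0.83 to 0.23), and Hspa9, that of mitochondria, one of -0.37 (interval -0.84 to 0.10). Hspa13, a microsomal HSP70 of low abundance, fell by 0.77 ± 0.27 on the log2 scale (adjusted p = 0.0408), from 18.5 to 26.0 CPM in unbound to 10.2 to 16.5 CPM in IP, without overlap. This call was lost without IP 1, IP 2, unbound 1, unbound 3 or unbound 4 (adjusted p between 0.0614 and 0.178). It was also lost with scaling by library size alone (0.0769), without a low-count filter (0.0564), with the replicate block (0.0729) and within index ACAGTG (0.111). Within index GTGAAA the log2 fold change of Hspa13 was -0.457.

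The inducible HSP70 pair Hspa1a and Hspa1b, neighbours on chr17, was low in all libraries. Hspa1a measured 8.20, 4.79 and 5.50 CPM in IP and 3.28, 1.44, 2.83 and 4.10 CPM in unbound, without overlap, at a log2 fold change of 1.08 ± 0.43 (adjusted p = 0.0692). It passed with DESeq2 (1.085, adjusted p = 0.0374) and limma voom (1.155, adjusted p = 0.0436). With 1 library left out it did not pass (adjusted p between 0.0618 and 0.26). Hspa1b measured 1.80 to 3.39 CPM in IP and 0.512 to 2.31 CPM in unbound, with overlap, at 0.74 ± 0.62 (adjusted p = 0.372). The copies share 66.3% and 62.3% of their 50-base sequences with other transcripts, mainly each other's, so the counts of either one are uncertain. Counts that do map to 1 copy were therefore summed and set against Hspa8, a ratio within a library that does not depend on how libraries are scaled. Hspa8 itself shares 39.4% of its 50-base sequences with other transcripts, so both sides of the ratio are uncertain. The log2 ratio was -6.15, -6.56 and -6.66 in IP and -7.40, -8.13, -7.53 and -7.45 in unbound. It was higher in each IP library than in each unbound one, by 1.17, with an exact permutation p of 0.0286, the smallest that the 35 ways of choosing 3 of 7 libraries can give (2-sided, 0.0381 adjusted over 4 ratios). Within index ACAGTG the difference was 1.41, and within index GTGAAA 0.83. A list of 10 acute stress and immediate early genes stood beside this. Of these, 6 were higher in IP (60%, against 20.5% of all genes) and 1 was lower (10%, against 18.9%). This list had a summed level of 467 to 761 CPM in IP against 209 to 310 CPM in unbound. Its part in the ratio was not tested.

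The HSP90 pair moved apart in the other direction. Hsp90ab1, the constitutive cytosolic HSP90, had the highest level per kilobase of all members in both groups, 460.5 CPM per kb in IP and 432.1 in unbound, and a log2 fold change of 0.09 with an interval from -0.45 to 0.63. Hsp90aa1, the stress-inducible form, had 179.5, 176.2 and 316.4 CPM in IP and 375.4, 350.5, 400.5 and 716.4 CPM in unbound. IP 4 was closest to the unbound libraries, and unbound 4 stood highest. Hsp90aa1 fell by 1.04 ± 0.34 on the log2 scale (adjusted p = 0.0311), and the call was lost without IP 1, IP 2 or unbound 4 (adjusted p between 0.0806 and 0.140). Within index ACAGTG it was also lost (adjusted p = 0.0586), and within index GTGAAA the log2 fold change of Hsp90aa1 was -0.80. The log2 ratio of Hsp90aa1 to Hsp90ab1 was -2.90, -2.95 and -2.19 in IP and -1.55, -1.82, -1.60 and -1.19 in unbound. This is a difference of -1.14 without overlap (exact permutation p = 0.0286, adjusted 0.0381), with -1.24 within index ACAGTG and -0.79 within index GTGAAA. Copies related to Hsp90aa1 hold 47.5% of its 50-base sequences, so its count is uncertain. Hsp90b1 (GRP94), the HSP90 of the ER, had a log2 fold change of -0.45 (interval -1.04 to 0.14).

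The HSP110 family held a similar split. Hsph1, the stress-inducible HSP110, had 214.8, 196.1 and 251.6 CPM in IP and 395.2, 415.4, 488.6 and 634.3 CPM in unbound. Each IP library lay below each unbound one, and Hsph1 fell by 1.13 ± 0.26 on the log2 scale (adjusted p = 0.00554). Its constitutive relative Hspa4 had a log2 fold change of 0.16 (interval -0.46 to 0.78). The log2 ratio of Hsph1 to Hspa4 lay between 0.43 and 0.56 in IP and between 1.60 and 2.01 in unbound, a difference of -1.34 (exact permutation p = 0.0286, adjusted 0.0381). It was -1.48 within index ACAGTG and -1.17 within index GTGAAA. Hspa4l, the remaining member, had -0.76 in log2 fold change, short of the threshold (adjusted p = 0.0768), and passed without unbound 2 (-0.96, adjusted p = 0.0101).

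The last ratio did not differ beyond the spread of the libraries. Dnajb1 and Dnaja1 are the main cytosolic J-domain partners of HSP70, the first strongly inducible. The log2 ratio of Dnajb1 to Dnaja1 was -0.91 ± 0.08 in IP (SD, n = 3) and -0.79 ± 0.26 in unbound (SD, n = 4), a difference of -0.12 (exact permutation p = 0.486).

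**Figure D3:**
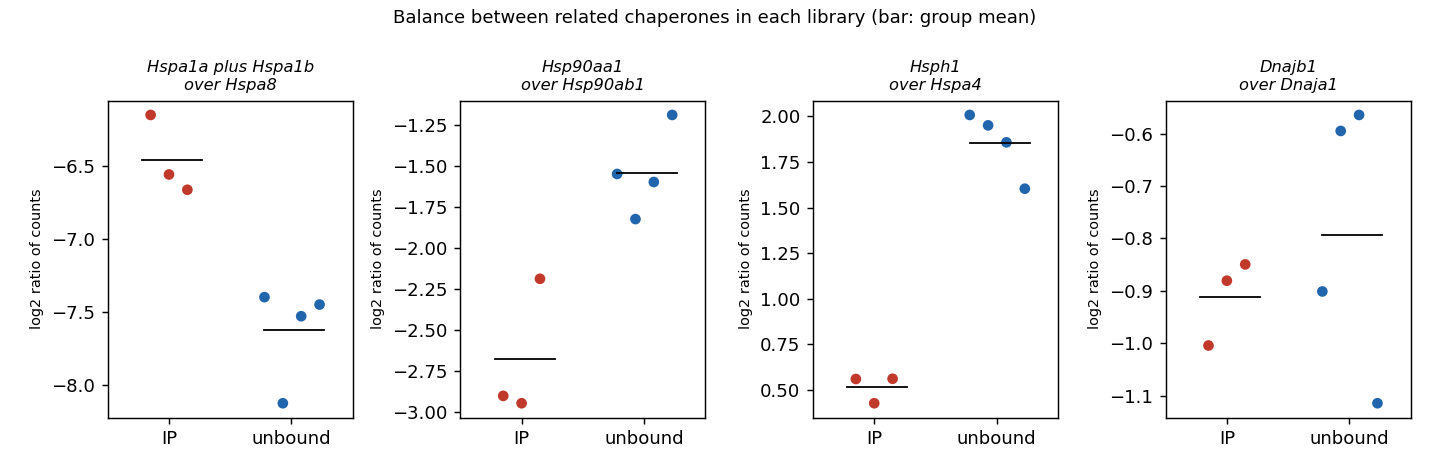
Log2 ratio of counts within each library (vertical axis) for Hspa1a plus Hspa1b over Hspa8, Hsp90aa1 over Hsp90ab1, Hsph1 over Hspa4, and Dnajb1 over Dnaja1, with IP libraries in red, unbound libraries in blue and a bar for each group's mean. The groups are apart in the first 3 ratios, IP above in the first (1.17) and below in the next pair (-1.14 and -1.34), and overlap in the last (-0.12).

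The textbook targets of HSF1 among the members did not move as 1 group. Of 11 such genes 1 rose, Hspb1 (9.09%, against 20.5% of all genes tested). Of the others, 2 fell, Hsp90aa1 and Hsph1 (18.2%, close to the 18.9% of all genes), and 8 did not pass the threshold. Their median log2 fold change was -0.10. Among HSF factors and cochaperones that are no members, 3 of 23 rose (13%, against 20.5% of all genes) and 6 fell (26.1%, against 18.9%). Bag3, the partner of Hspb8, had the largest of these rises, from 16.8 ± 10.2 CPM in unbound (SD, n = 4) to 77.8 ± 11.5 CPM in IP (SD, n = 3), a log2 fold change of 2.21 ± 0.44 (adjusted p = 0.00274). Hsf1 itself (1.0 ± 0.21) and the HSP90 cochaperone Fkbp5 (1.73 ± 0.54) were the other 2, named after their values were seen. The remaining HSF genes of the list went the other way and were among those that fell. These were Hsf2 (-0.66 ± 0.24, adjusted p = 0.0466), Hsf4 (-1.19 ± 0.30, adjusted p = 0.0101) and Hsf5 (-3.32 ± 0.91, adjusted p = 0.0149). Fkbp5 lost its call without IP 1, IP 2, unbound 2, unbound 3 or unbound 4 (adjusted p between 0.0533 and 0.112). Stip1 (HOP), which passes clients from HSP70 to HSP90, fell by 1.08 ± 0.25 on the log2 scale (adjusted p = 0.00576). Cdc37l1, named for its mean CPM, fell by 0.63 ± 0.21 (adjusted p = 0.0356). Its call was lost in 6 of the 7 fits without 1 library, all but the one without unbound 2 (adjusted p between 0.0625 and 0.137 in those 6).

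An element of 3 units, that is GAA, TTC and GAA, or TTC, GAA and TTC, each set apart by any 2 bases, was searched on both strands of RefSeq promoters (250 bases before to 50 after the start), which were found for 60 of the 74 members. This longer HSF1 element was present in 4 of them (6.67%), Hspd1, Hspe1, Hsph1 and Dnajb6, and in 0.662% of 27025 genes with a promoter entry. Hspd1 and Hspe1 face away from each other on chr1 and share the stretch. Of members with a promoter entry, it was in 0 of 5 that rose, 1 of 6 that fell and 3 of 45 that did not pass. The pair of units, which every longer element contains, was added after the data were seen, and was found in 16 members (26.7%) and in 17% of genes. It was present in 2 of 5 members that rose with a promoter entry, 2 of 6 that fell and 11 of 45 that did not pass, and in Dnajc5g, which was not tested. A match is a description of letters and shows neither binding nor a cause. Sites are given 5′ to 3′ on the gene's strand with the element in capitals, 2 overlapping elements in the case of Hspe1, at chr1:55088053-55088082 (Hspe1, plus), chr5:149636280-149636308 (Hsph1, minus) and chr5:29735844-29735872 (Dnajb6, plus) of GRCm38.p6.
Hspe1: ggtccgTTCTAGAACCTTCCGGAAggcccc
Hsph1: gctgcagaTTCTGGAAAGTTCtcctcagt
Dnajb6: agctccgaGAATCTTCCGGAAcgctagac

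Of these 4 genes, Hsph1 fell and the other 3 did not pass the threshold. The mitochondrial chaperonin Hspd1 (HSP60) had 137 to 159 CPM in IP and 124 to 216 CPM in unbound, and a log2 fold change of -0.10 with an interval from -0.64 to 0.44. Hspd1 shares 42.1% of its 50-base sequences with other transcripts, so its count is uncertain. Its lid Hspe1 (HSP10) had 68.4 to 91.2 CPM in IP and 56.6 to 170.7 CPM in unbound, with unbound 2 the highest, and a log2 fold change of -0.32 with an interval from -1.09 to 0.44. Dnajb6, which keeps polyglutamine proteins from aggregating, had a log2 fold change of -0.32 with an interval from -0.93 to 0.29.

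Of 8 members of the ER lumen, Hspa13 fell (12.5%, against 18.9% of all genes tested) and 7 did not pass. Those not called included Dnajc1, an ER J-domain protein, at -0.75 ± 0.35 with overlap between the groups (adjusted p = 0.117). Among them also were Dnajb9 (ERdj4), with a log2 fold change of -0.61 ± 0.25 and no overlap between groups (adjusted p = 0.0703), and Dnajc3 (p58IPK), at 0.53 ± 0.26 and no overlap in the other direction (adjusted p = 0.128). Of the ER unfolded protein response genes that are no members, 1 of 19 rose and 1 fell (5.26% each, against 20.5% and 18.9% of all genes). The first was Edem1, which takes misfolded glycoproteins to degradation, with a log2 fold change of 1.49 ± 0.30 (adjusted p = 0.00289). The second was the lectin chaperone Canx at -0.83 ± 0.24 (adjusted p = 0.0182), which lost its call without IP 1 or IP 2 (adjusted p = 0.0955 and 0.104). Atf4, named for its mean CPM, had a log2 fold change of -0.12 ± 0.30. Among chaperones outside the symbol rule, the CCT ring included, none of 21 rose, where 20.5% of all genes did. In this list 2 fell (9.52%, against 18.9% of all genes), Cryab and the ER chaperone Hyou1, the latter by 0.94 ± 0.26 on the log2 scale (adjusted p = 0.0163). Hyou1 lost its call without IP 1 or IP 2 (adjusted p = 0.0744 and 0.0847).

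The ER stress element, CCAAT followed after any 9 bases by CCACG, was searched on both strands and was present in 3 of 60 member promoters (5%) and in 0.137% of genes. All 3, Hspa5, Hsp90b1 and Dnajc3, encode ER lumen chaperones and hold neither HSF1 element in that window, and none passed the threshold. They are shown with the element in capitals, at chr2:34772020-34772048 (Hspa5, plus), chr10:86705633-86705661 (Hsp90b1, minus) and chr14:118937822-118937850 (Dnajc3, plus) of GRCm38.p6.
Hspa5: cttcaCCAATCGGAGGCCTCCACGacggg
Hsp90b1: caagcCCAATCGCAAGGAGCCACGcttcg
Dnajc3: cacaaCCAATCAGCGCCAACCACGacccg

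Of the 3 tested J-domain genes of vesicles and endosomes, Dnajc6 and Dnajc5 fell (66.7%, against 18.9% of all genes) and Dnajc13 did not pass the threshold. Dnajc6 (auxilin), which recruits HSP70 to strip clathrin from vesicles at nerve terminals, measured 56.4, 68.2 and 170.2 CPM in IP and 338.3, 221.2, 276.6 and 336.3 CPM in unbound. IP 4 lay between the other IP libraries and the unbound ones. The log2 fold change was -1.58 ± 0.39 (adjusted p = 0.00859), -2.23 without IP 4 (adjusted p = 0.000473), and -1.36 without IP 2, where the call was lost (adjusted p = 0.0527).

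Dnajc5 is the cysteine string protein of synaptic vesicles. It measured 213.7, 223.2 and 278.3 CPM in IP and 457.7, 275.3, 436.6 and 458.5 CPM in unbound. The groups overlapped, since IP 4 was above unbound 2. It fell by 0.77 ± 0.26 on the log2 scale (adjusted p = 0.0361), a call lost without IP 1, IP 2, unbound 1, unbound 3 or unbound 4 (adjusted p between 0.0694 and 0.142). The call was also lost with scaling by library size alone (0.0802), with the replicate block (0.116) and within index ACAGTG (0.19). Dnajc13, a J-domain protein of endosomes, had 0.63 ± 0.31 in log2 fold change, short of the threshold (adjusted p = 0.131), and passed with the replicate number as a block (0.85, adjusted p = 0.0463) and with the index covariate (0.82, adjusted p = 0.0153). Dnajc5g had 0 counts in every library and Dnajc5b had 7 over IP and 4 over unbound, and neither was tested.

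Dnajc27 had the smallest adjusted p among the members that fell. It joins a J domain to a small GTPase of the Ras kind. It measured 54.0, 58.0 and 91.4 CPM in IP and 324.6, 172.5, 254.5 and 239.5 CPM in unbound, without overlap, and fell by 1.87 ± 0.30 on the log2 scale (adjusted p = 0.000752). In CPM per kb it was at rank 32 of the members in IP and at rank 11 in unbound.

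Dnajc22 was nearly absent from the IP libraries. IP 1 held all 3 of its IP counts, and IP 2 and IP 4 held none, against 235 counts over the unbound libraries. In CPM it had 1.83, 0.275, 0.721 and 0.618 in unbound 1 to 4. The pooled unbound level was 58.0 times the IP level, with an exact 95% counting interval from 19.6 to 283. The fitted log2 fold change was -5.66 ± 1.38 (adjusted p = 0.00815), and -8.67 without IP 1, the library with its 3 counts (adjusted p = 0.0136). No IP count remained in that fit, so the size of its value is not a measured ratio. Within index ACAGTG the call was lost (-5.515, adjusted p = 0.0874).

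Dnajc12 and the exchange factor Hspbp1 were lower in IP at moderate levels. Dnajc12 helps to fold the hydroxylases that make dopamine and serotonin precursors. It had 10.6, 13.9 and 12.1 CPM in IP and 20.7, 52.3, 21.1 and 29.4 CPM in unbound, with no overlap and unbound 2 the highest. It fell by 1.34 ± 0.35 on the log2 scale (adjusted p = 0.0123), a call lost without IP 1 (adjusted p = 0.0585). Hspbp1 had 34.2, 30.9 and 31.9 CPM in IP and 60.6, 128.5, 74.4 and 53.4 CPM in unbound, again with unbound 2 the highest and without overlap. It fell by 1.29 ± 0.31 on the log2 scale (adjusted p = 0.00784).

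A further 3 J-domain genes fell by less. Dnajc15, of the mitochondrial inner membrane, fell by 0.91 ± 0.28 on the log2 scale (adjusted p = 0.024), and lost its call without IP 1, IP 2 or IP 4 (adjusted p between 0.0712 and 0.0805). Dnajc18, of the ER membrane, fell by 0.78 ± 0.24 (adjusted p = 0.0257), and lost it without IP 1, IP 2, unbound 1, unbound 3 or unbound 4 (adjusted p between 0.0527 and 0.112). Dnajb2, a neuronal J-domain protein that sorts ubiquitinated clients, fell by 0.66 ± 0.23 (adjusted p = 0.0411), and lost it without IP 2, IP 4, unbound 1 or unbound 3 (adjusted p between 0.0529 and 0.175). The calls of Dnajc18 and Dnajb2 were also lost with scaling by library size alone and with the replicate block. Within index ACAGTG the calls of all 3 genes were lost. In all 3 genes the IP libraries lay below the unbound ones without overlap.

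Dnajb13 was the only Dnaj symbol that rose past the threshold. It is a J-domain protein of the radial spokes of cilia and sperm tails. It had 3.14, 2.65 and 4.11 CPM in IP and 0.464, 0.601, 0.418 and 0.424 CPM in unbound, far apart, and rose by 2.79 ± 0.52 on the log2 scale (adjusted p = 0.00195). Within index ACAGTG the call was lost (2.44, adjusted p = 0.0737). Of its exon bases, 11.2% overlap Ucp2, so reads from the shared stretch cannot be told apart without strand.

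J-domain genes of the nucleus, the ribosome and RNA processing held no calls among 5, where 39.4% of all genes tested were called. Dnajc8, a splicing factor partner, came nearest, with 158.0, 134.8 and 103.0 CPM in IP and 88.8, 104.3, 70.8 and 83.0 CPM in unbound. IP 4 lay just below unbound 2. Its log2 fold change of 0.61 ± 0.23 did not pass (adjusted p = 0.060), but was past the threshold without IP 4 or without unbound 2 (adjusted p = 0.0353 and 0.0195). Dnajc2, a ribosome-bound J-domain protein that works on nascent chains, had 50.1 to 60.5 CPM in IP and 31.5 to 42.9 CPM in unbound, with no overlap, at 0.50 ± 0.21 (adjusted p = 0.079).

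The DNAJA genes, general partners of HSP70, did not pass the threshold either. Dnaja1 had a log2 fold change of -0.10 (interval -0.57 to 0.36), which was 0.0024 with scaling by library size alone. Dnaja2 had -0.55 ± 0.26 (adjusted p = 0.118), with overlap between the groups. Dnaja4 was higher in each IP library than in each unbound one (41.4 to 45.8 against 27.2 to 37.2 CPM), at 0.49 ± 0.21 (adjusted p = 0.0875). Without unbound 2 it passed (adjusted p = 0.027, against 0.027 to 0.221 over the leave-one-out fits). It shares 42.7% of its 50-base sequences with the overlapping gene Wdr61, so its count is uncertain.

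**Figure D4:**
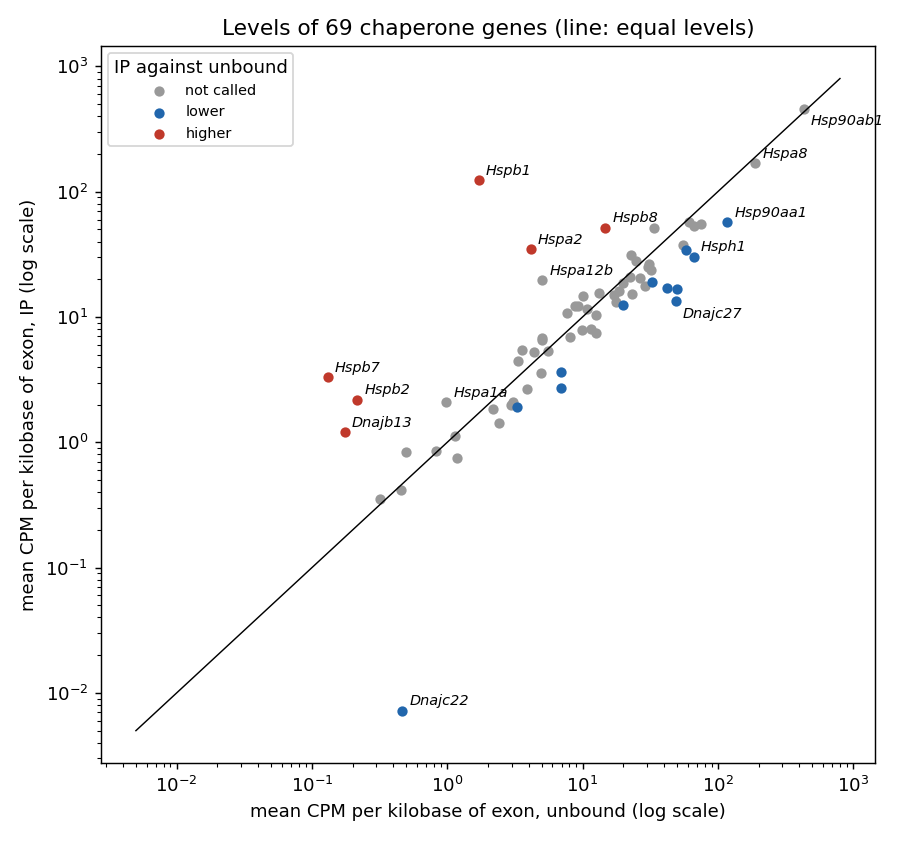
Mean level in IP (vertical axis) against mean level in unbound (horizontal axis), both in CPM per kilobase of merged exons on log scales, for the 69 tested members; red and blue mark members called higher and lower in IP, grey those not called, and the line marks equal levels. Hsp90ab1 and Hspa8 are highest on both axes, close to the line, while Hspb1 is at rank 3 in IP and far above the line.

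The chaperones with the highest levels per kilobase were largely the same in both groups. Hsp90ab1 was at rank 1 and Hspa8 at rank 2 in each, the latter at 169.2 CPM per kb in IP and 189.4 in unbound. Hsp90aa1 was at rank 4 in IP, with 57.0 CPM per kb, and at rank 3 in unbound, with 117.2 CPM per kb. Hspb8 was at rank 9 in IP, with 51.5 CPM per kb, and at rank 29 in unbound, with 14.7 CPM per kb.

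**Figure D5:**
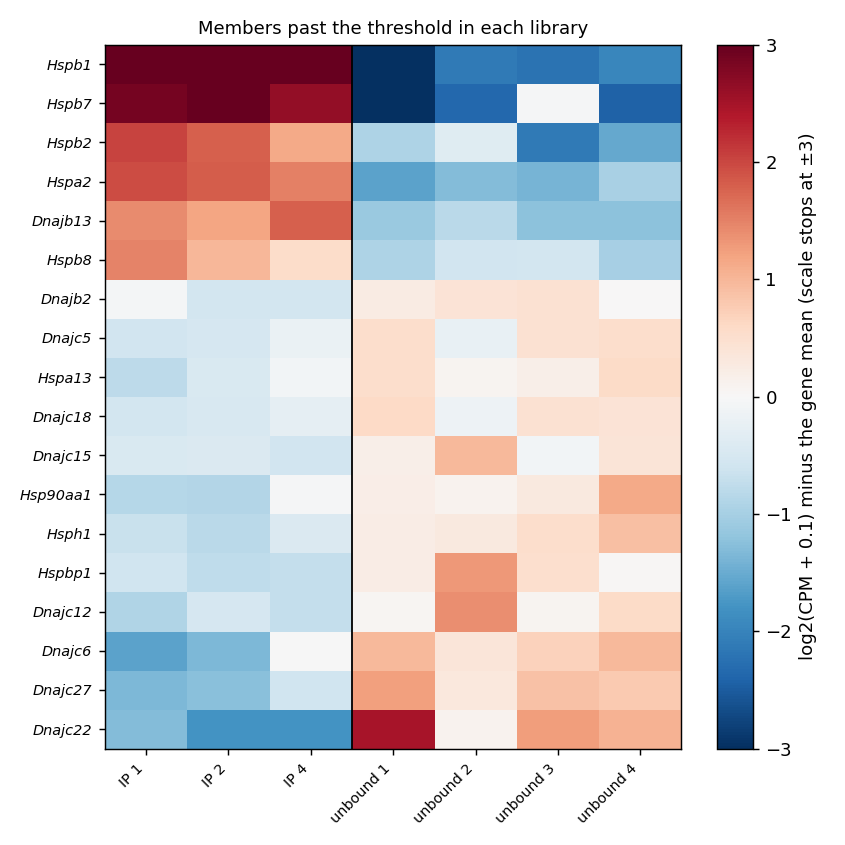
Level of each of the 18 called members (rows) in each of the 7 libraries (columns), as log2(CPM + 0.1) minus the gene's mean over libraries, with red above and blue below that mean. The 6 genes that rose are red in the 3 IP columns, and the 12 that fell are blue or near white there, with Dnajc6 and Hsp90aa1 near white in IP 4.

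IP 4 lay nearer to the unbound libraries in many of the called members. Among the 6 that rose it was the lowest of the IP libraries in 5, and among the 12 that fell it was the highest in 7. The same count was not made over all called genes. In log2 CPM of all genes tested, IP 4 also correlated more closely with each unbound library than IP 1 or IP 2 did. Its correlations were 0.791 to 0.846, against 0.769 to 0.819, so a nearer IP 4 was not particular to the members. The pan-neuronal marker sum of IP 4, 7790 CPM, was likewise the closest of the 3 to the unbound libraries. The part of this in the members' values was not tested. Without IP 4, 7 members were called higher and 11 lower, and 3321 and 3213 of all genes. Without IP 1, 6 members were called lower, 3 of them DNAJC genes, and without IP 2, 5 were, again with 3 DNAJC genes. Of all genes, 1899 were called lower without IP 1 and 1751 without IP 2, against 3328 with all libraries. Without unbound 2, 10 members were called higher, and 4050 of all genes, against 3622 with all libraries.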

How the data were processed

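The authors deposited unnormalized read counts for each gene symbol, from STAR 2.0.0e and HTSeq on mouse build mm10, per the submitters' processing notes. Their annotation, strand setting and filters on reads were not given in the sources used here. The 6 rows that name no gene entered neither library sizes nor tests. In these, reads with no feature came to 13.4% to 18.6% of all in IP and 11.3% to 12.9% in unbound, reads that fit more than 1 gene to 1.43% to 1.63% and 7.26% to 11.5%, and reads aligned to more than 1 place to 33.1% to 39.6% and 17.6% to 34.6%.

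The comparison used edgeR 4.0.16 in R 4.3.3: filterByExpr for low counts, TMM scaling, and a 2-sided robust quasi-likelihood test of IP against unbound, with Benjamini-Hochberg adjustment over all 17654 genes tested. CPM uses the effective library size. Levels per kilobase use merged exons of GENCODE M21, which also gave the coordinates (GRCm38, the same build as mm10). Confidence intervals are at 95%. Each of the 4 log2 ratios of related genes was given an exact permutation p from the 35 ways of choosing 3 of 7 libraries. No 2 libraries of a group matched within sampling noise (chi-square per degree of freedom 66.4 to 1055). The scripts were tested on simulated data.

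The alternatives tried were scaling by RLE or by library size, testing without a filter or only genes with 5 CPM in 3 libraries, DESeq2 1.42.0, limma voom (limma 3.58.1), a block on the replicate number, a covariate for the index sequence, each index sequence alone, each library left out in turn, and IP 4 and unbound 2 left out together. The members and lists were chosen with earlier results of these data known. Named were, in each class, the member with the highest mean CPM and those with the smallest p among higher and lower members, then all called members with a log2 fold change of at least 1 in size, and the genes of the 4 ratios. From each list of other genes the same 3 were named. Further genes named with values, such as Dnajc2, Dnajc13 and Dnajb9, were chosen after their values were seen. Promoters were read from RefSeq (GRCm38.p6). No entry was used for Hsp90aa1, Hsp90ab1, Hspa8, Hspb2 and 10 further members, and protein sequences were not used here.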

Additional observations from a re-analysis of the deposited data

Results flagged for a closer look

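The 4 unbound libraries were searched for a library far from the other 3, in each of the 69 tested members and the 4 log2 ratios, by its gap to the nearest divided by the range, against Dixon's 95% critical value. Groups of 3, such as IP, were not tested. Of 73 sets of values checked, 8 held such a library. Chance gives about 1 in 20 for independent, normally distributed values. The sets here come from the same 4 libraries, and the search was not made over all genes. No excess particular to the members can therefore be read from this count. In 3 of them it was unbound 2, which had 275.3 CPM for Dnajc5 (below the other 3), 37.6 CPM for Dnajc24 and 9.04 CPM for Dnajc17 (both above them). Unbound 1 stood above the others for Hspa12b at 55.4 CPM and below them for Dnajc14, a J-domain protein of the ER, at 20.3 CPM. Unbound 3 stood above for Hspb7 at 1.16 CPM and for Dnajc11, a mitochondrial J-domain protein, at 36.9 CPM. Unbound 4 stood above for Hsp90aa1 at 716.4 CPM. Dnajc24, which takes part in making diphthamide, differed by 0.23 on the log2 scale (adjusted p = 0.702), and by 0.85 with unbound 2 left out (adjusted p = 0.0104).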

How the results depend on the processing

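None of the 321 refitted fold changes of the 18 called members changed sign, and 268 stayed past the threshold. The 18 were called in the same libraries that the refits reuse, so this is no independent support for the calls. Of the 18 calls, 5 held in every alternative run that gave a value (Hspb1, Hspa2, Hspb7, Hspb8 and Dnajc27), and 10 held without each library in turn. The fit within index GTGAAA has 1 IP library, which is assumed to vary like the unbound ones. The number of members called was 6 within index ACAGTG and 11 to 27 with 1 library left out. Those higher numbered 6 to 10 with 1 library left out and 11 without IP 4 and unbound 2. Those lower numbered 2 within index ACAGTG and 5 to 17 with 1 library left out, and lower DNAJC members 2 and 3 to 9. In all genes, 3840 (21.7%) were called within index ACAGTG, 4547 (24.7%) without IP 2, 7682 (44.2%) without unbound 2 and 6950 (39.4%) with all libraries.

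With 1 library left out, the log2 ratios ranged from 1.005 to 1.28 (Hspa1a plus Hspa1b over Hspa8), from -1.39 to -1.01 (Hsp90aa1 over Hsp90ab1) and from -1.42 to -1.29 (Hsph1 over Hspa4). In the same order they were 1.41, -1.24 and -1.48 within index ACAGTG, 0.83, -0.79 and -1.17 within index GTGAAA, and 1.21, -1.16 and -1.34 with the replicate block. All kept their sign, and in each of these runs the fewer splits left cannot give an adjusted p under 0.05 (the values were 0.0889 to 0.444). With the replicate number as a block, 16 members passed, 8 higher and 8 lower, 14 of them among the 18, and 5772 genes in all. Same-numbered libraries deviated together with correlations of -0.03, 0.04 and 0.16, not all above 0.1, and the labels do not say whether they come from 1 animal. IP 4 correlated best with its own number, and IP 1 and IP 2 both with unbound 2.

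Of the 69 tested members 19 changed sign in at least 1 alternative. None was called with all libraries or in a fit where its sign had changed. Of genes given with values, those that changed sign were Atf4 (0.0187 with library size only, 0.162 within index GTGAAA, 0.193 without IP 4 and unbound 2, and -0.27 to 0.20 with 1 library left out), Dnaja1 (0.0024 with library size only), Hspa4 (-0.011 without IP 4 and unbound 2), Hspd1 (0.166 within index ACAGTG, and -0.21 to 0.0678 with 1 library left out), Hspe1 (0.0542 within index GTGAAA, 0.181 without IP 4 and unbound 2, and -0.52 to 0.0867 with 1 library left out), Dnajc24 (-0.13 within index ACAGTG) and Hspb3 (-0.464 within index ACAGTG, and -0.353 to 0.877 with 1 library left out). The other 13 members are not given with values. The cause was not tested. Depth limits what can be said of Dnajb7, Dnajb8, Dnajc5b, Dnajc5g and Hspb9, where 3 counts equal 0.0164 CPM over IP and 0.0121 CPM over unbound.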
